A study of Homo sapiens with 18 samples.

Results

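Small nucleolar RNA host genes are transcription units whose introns release small nucleolar RNAs (snoRNAs), the guides that direct methylation and pseudouridylation of ribosomal RNA. The 10 genes described here, GAS5, SNHG1, SNHG3, SNHG5, SNHG6, SNHG7, SNHG8, SNHG12, SNHG15 and SNHG16, were taken by name from the 57448 genes of the count table as hosts whose spliced RNA codes for no known protein. The choice was made with earlier results of these data known, so comparisons of the hosts with all genes are descriptions. The hosts were measured by RNA-seq in MDA-MB-231, an established human triple negative breast cancer line. The study asked what loss of GPS2, a subunit of the NCoR/SMRT corepressor complex and an inhibitor of non-proteolytic ubiquitination, does to gene expression, and how much of it depends on the kinase AKT. The untreated parental cells (WT) carried no modification. KO1 and KO2 were made with CRISPR-Cas9 from lentiviral vectors, with a different set of guides against exons of GPS2 in each, and were kept as mixed pools rather than single clones. The myrAKT cells expressed a myristoylated, membrane-bound and constitutively active AKT1 from a retroviral vector. KO1+MK and KO2+MK were the same knockout pools given 10 µM MK2206, an allosteric AKT inhibitor, for 4 h. WT and myrAKT cells with the inhibitor were not analysed here. None of the groups carried an empty vector, so vector and delivery cannot be told apart from loss of GPS2 or active AKT. Each of the 6 groups had 3 libraries, 18 in all, and because nothing states that replicates came from separate cultures, p-values measure the spread between these samples, which may be technical.

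A host transcript is spliced, the intron is debranched and trimmed to the snoRNA, and the joined exons leave as a long noncoding RNA. Many host RNAs begin with a 5′ terminal oligopyrimidine (TOP) tract, a C followed by a run of pyrimidines, which places them among the mRNAs of the translation machinery whose translation is controlled through mTORC1, a complex downstream of AKT. Host RNAs hold only short open reading frames, and several, GAS5 among them, are degraded by nonsense-mediated decay (NMD) when ribosomes translate them, so that their steady level depends on both transcription and translation. In breast cancer cells GAS5 is known mainly as a growth-arrest RNA, and most of the others are described as raised in tumours.

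The annotated transcripts of 3 hosts began with a TOP-like tract, and those sequences are shown first because this feature relates host genes to the AKT and mTORC1 pathway. A tract was defined as a C followed by at least 4 further bases that are each C or T, read on the gene's own strand. Each sequence runs 5′ to 3′ from 20 bases before the annotated start, with the tract at the start in capitals. The SNHG5 and SNHG12 starts are from RefSeq, on build hg38. For GAS5 the RefSeq start lies upstream of the gene span in GENCODE 44, so the start of the GENCODE canonical transcript was used, with bases from hg38. The windows lie at chr1:173867960-173868009 (minus strand) for GAS5, chr6:85678704-85678753 (minus strand) for SNHG5 and chr1:28581844-28581893 (minus strand) for SNHG12.
GAS5: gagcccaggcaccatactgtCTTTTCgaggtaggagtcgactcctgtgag
SNHG5: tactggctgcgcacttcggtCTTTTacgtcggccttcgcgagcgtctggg
SNHG12: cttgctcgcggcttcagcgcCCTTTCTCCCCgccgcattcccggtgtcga

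The other hosts shown here had a tract near the start that did not begin at the start base, and where a window held several tracts the one beginning nearest to the start is marked. SNHG7 and SNHG16 are printed because they include the host that rose further under the AKT inhibitor and the host that fell, and SNHG8 because its tract ends at the start base. The SNHG7 tract begins 1 base before the annotated start and that of SNHG16 begins 5 bases after it. These windows are chr9:136728155-136728204 (minus strand), chr17:76557744-76557793 (plus strand) and chr4:118278742-118278791 (plus strand), all with starts from RefSeq on hg38 and the marked tract in capitals.
SNHG7: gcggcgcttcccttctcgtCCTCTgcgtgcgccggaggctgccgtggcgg
SNHG16: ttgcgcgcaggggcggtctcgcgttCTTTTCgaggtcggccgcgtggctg
SNHG8: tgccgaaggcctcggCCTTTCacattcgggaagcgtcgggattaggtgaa

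Of 35116 RefSeq promoter windows, 4.07% had such a tract exactly at the start and 53.1% had one anywhere in the same window, so a tract somewhere near a start is a common feature. RefSeq promoter windows were found for 8 of the 10 hosts. Among the hosts not printed, the nearest tract began 19 bases before the start in SNHG1 and 19 bases after it in SNHG3 and SNHG15. No tract was marked in SNHG6. A match describes the letters of the annotated start and says nothing about the start used in these cells.

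Libraries held between 23419198 and 39319910 counts. The libraries with MK2206 were shallower, from 23419198 to 29939536 counts, than the untreated ones, from 30287210 to 39319910, and the part of depth in the MK2206 comparisons was not tested. VIM, CD44, EGFR, AXL and KRT18, which MDA-MB-231 expresses, were at 149 CPM (counts per 1000000 scaled counts) or more in every library, while CDH1, PGR and the blood-cell gene PTPRC stayed at 0.147 CPM or less and ESR1 at 1.38 or less. The targeted gene GPS2 lay between 4.4 and 6.16 CPM in all libraries and was not lower in KO1 (log2 fold change −0.04, adjusted p = 0.747) or KO2 (0.40, adjusted p = 0.00221) than in WT. A gene-level count includes reads from edited alleles, so this level does not check the knockout labels. AKT1 was 1.70-fold higher in myrAKT than in WT (adjusted p = 4.27e-09).

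All 10 hosts were well covered, with 337 to 9883 counts per library. A level is given as CPM after TMM scaling between libraries, and an error as the SD over 3 libraries. Summed over the 10 hosts, the level was 595 ± 17.3 CPM in WT, 840 ± 8.43 in KO1, 749 ± 7.95 in KO2, 675 ± 27.5 in myrAKT, 708 ± 29.5 in KO1+MK and 672 ± 19.5 in KO2+MK. SNHG16 gave the largest share of that sum in each group. Per kilobase of all annotated exons, which is the scale for comparing genes, the order in WT ran from SNHG16 through GAS5, SNHG3, SNHG1, SNHG6, SNHG5, SNHG8, SNHG7 and SNHG12 down to SNHG15. Over the 6 group means SNHG16 lay at 29.6 to 45.4 FPKM (fragments per kilobase of exon and per 1000000 fragments) and SNHG15 at 2.74 to 6.82 on this scale. With the canonical transcript as the length the first and last genes held their places and SNHG5 moved from place 6 to place 3, because SNHG5 has 12604 annotated exon bases against 1316 in its canonical transcript.

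**Figure D1:**
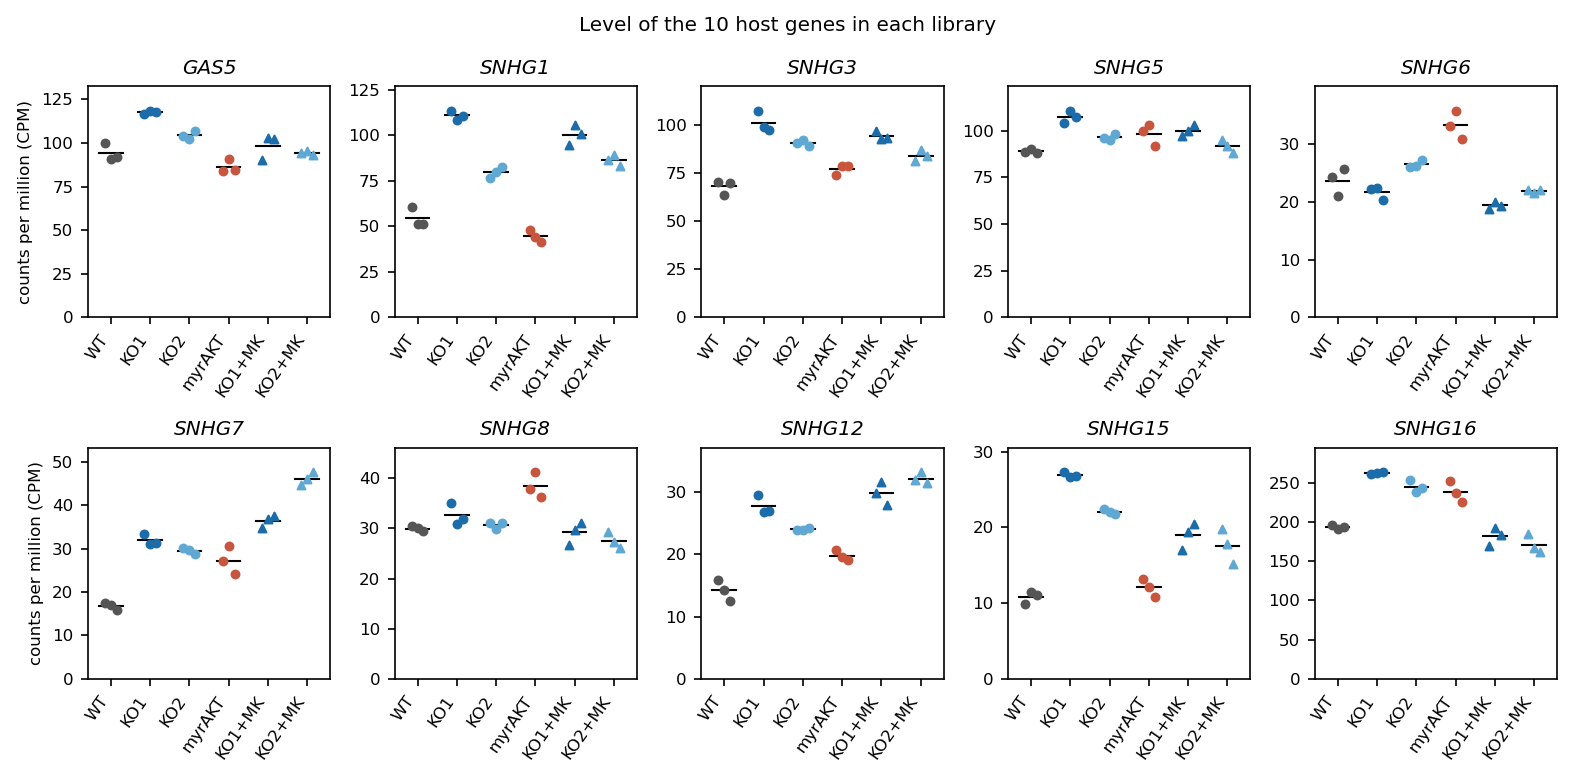
Level of each host gene (CPM, linear axis from 0) in the 18 libraries; points are libraries, triangles mark the MK2206 groups and lines are group means. GAS5, SNHG1, SNHG3, SNHG5, SNHG7, SNHG12, SNHG15 and SNHG16 are higher in each KO1 and KO2 library than in each WT library, SNHG6 and SNHG8 are highest in myrAKT, and SNHG16 with MK2206 is at 162 to 192 CPM beside 191 to 196 in WT. The share of all genes that stand apart in this way was not counted.

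Both knockout pools together were compared with WT to ask which hosts change with loss of GPS2. Of the 10 hosts, 6 were higher and 0 lower in the 6 knockout libraries, at an adjusted p of at most 0.001 over all 15587 genes tested. Among all genes 15.5% were higher and 16.6% lower by the same rule. The median log2 fold change was 0.42 over the hosts and −0.003 over all genes. This is a description, as the hosts were chosen with earlier results known. SNHG15 changed most (2.24-fold), followed by SNHG7 (1.81-fold), SNHG12 (1.80-fold), SNHG1 (1.73-fold), SNHG3 (1.39-fold) and SNHG16 (1.29-fold). GAS5 (1.16-fold, adjusted p = 0.0073), SNHG5 (1.13-fold, adjusted p = 0.0105), SNHG8 and SNHG6 did not pass. The calls for GAS5 and SNHG5 turned on the fit: GAS5 passed with DESeq2, and both passed with KO1 and KO2 as separate groups and with all 18 libraries in 1 fit, which gave 7 hosts higher by the first and 8 by each of the others. The shares of all genes called by these other fits were not counted.

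SNHG15 is a short-lived RNA that hosts SNORA9 and spans chr7:44983019-44986961 on the minus strand. It was at 9.89, 11.5 and 11.0 CPM in WT, at 27.3, 26.6 and 26.8 in KO1 and at 22.5, 22.1 and 21.7 in KO2. The groups did not overlap, and the gap between WT and the nearer pool was many times the spread within any of the 3 groups. Genes without overlap were not counted over all genes, but 9965 of 15587 had an unadjusted p under 0.05 in edgeR for the pooled knockouts. The log2 fold change was 1.30 ± 0.0618 (SE) in KO1 (adjusted p = 4.24e-10) and 1.02 ± 0.0652 in KO2 (adjusted p = 1.95e-08).

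SNHG7 hosts the pseudouridylation guides SNORA17A and SNORA17B (chr9:136721366-136728184, minus strand). Its WT libraries read 17.4, 16.9 and 16.0 CPM, its KO1 libraries 33.3, 31.0 and 31.3, and its KO2 libraries 30.0, 29.7 and 28.8. The knockout libraries all lay above WT, with a log2 fold change of 0.91 ± 0.0537 (SE) in KO1 and 0.81 ± 0.0508 in KO2. SNHG12, the host of SNORA16A, SNORA44, SNORA61 and SNORD99 (chr1:28578538-28583132, minus strand), was at 15.8, 14.3 and 12.6 CPM in WT, 29.5, 26.9 and 27.0 in KO1 and 23.9, 23.9 and 24.2 in KO2. Again no library overlapped between WT and the knockouts, and the log2 fold change was 0.95 ± 0.0735 (SE) in KO1 and 0.75 ± 0.0695 in KO2.

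SNHG1 carries a row of methylation guides of the SNORD22 to SNORD30 series in its introns (chr11:62851978-62855953, minus strand). WT libraries held 60.8, 51.4 and 51.6 CPM, KO1 libraries 114, 109 and 111, and KO2 libraries 76.8, 79.9 and 82.4. All 3 groups stood apart, KO1 highest. The log2 fold change was 1.01 ± 0.0534 (SE) in KO1 and 0.54 ± 0.0548 in KO2, and with both pools taken as 1 group the difference between them widened the error, so that the adjusted p was 0.000492. SNHG1 lost its call in the pooled comparison when any 1 of the WT libraries was left out, with an adjusted p of up to 0.00318 over all settings, and held it in KO1 alone and in KO2 alone under every tool, scaling, filter and left-out library tried.

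SNHG3 and SNHG16 had the smallest changes among the 6. SNHG3, the host of SNORA73A and SNORA73B, which take part in cleaving the ribosomal RNA precursor, lies at chr1:28505980-28510892 on the plus strand. Its level was 70.6, 63.7 and 69.8 CPM in WT, 107, 99.0 and 97.1 in KO1 and 90.8, 92.3 and 89.0 in KO2. SNHG16, the host of SNORD1A, SNORD1B and SNORD1C (chr17:76557727-76670985, plus strand), was at 196, 191 and 193 CPM in WT, 261, 262 and 263 in KO1 and 253, 238 and 244 in KO2. Neither gene had a knockout library within the WT range. The log2 fold changes in KO1 and KO2 were 0.55 ± 0.0466 (SE) and 0.41 ± 0.0416 for SNHG3, and 0.42 ± 0.0288 and 0.33 ± 0.0325 for SNHG16.

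Taken one pool at a time, KO1 had 8 hosts higher and 0 lower than WT, where 20.5% of all genes were higher and 21.3% lower. KO2 had 6 higher and 0 lower, where 20.8% were higher and 22.2% lower. The 2 hosts called in KO1 and not in KO2 were both hosts with a tract at the start, GAS5 and SNHG5, and SNHG12, the other host with such a tract, was called in both pools. A link between tract and call was not tested. GAS5 (chr1:173858559-173868882, minus strand) measured 99.99, 90.9 and 91.9 CPM in WT, 117, 118 and 118 in KO1 and 104, 102 and 107 in KO2. Every library of either pool was above every WT library, but the log2 fold change was only 0.30 ± 0.038 (SE) in KO1 (adjusted p = 6.23e-06) and 0.14 ± 0.0377 in KO2 (adjusted p = 0.00508). SNHG5, the host of SNORD50A and SNORD50B (chr6:85650491-85678932, minus strand), rose by 0.25 ± 0.0344 on the log2 scale in KO1 (adjusted p = 1.22e-05), and its KO2 value was 0.11 ± 0.0322 (adjusted p = 0.00766).

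The pools were then compared directly, which tests for a difference between 2 pools. Each set of guides was used in 1 pool, so guides and pool cannot be told apart. KO2 was lower than KO1 for 3 hosts and higher for 1, against 7.06% lower and 5.54% higher among all genes. SNHG1 differed most, with a log2 difference KO2 minus KO1 of −0.47 ± 0.034 (SE, adjusted p = 2.37e-08). SNHG15 (−0.27 ± 0.0455, adjusted p = 0.000182) and GAS5 (−0.16 ± 0.0295, adjusted p = 0.000427) were also lower in KO2, and SNHG6 was higher (0.30 ± 0.0509, adjusted p = 0.000218). For SNHG5 the direct difference was −0.14 (adjusted p = 0.00229), so a change of SNHG5 particular to KO1 was not shown. The calls for GAS5, SNHG6 and SNHG15 were less firm: leaving out the first KO1 library ended each of the 3, as did fitting all 18 libraries at once, and the largest adjusted p over these settings was 0.00643, 0.00172 and 0.00795, respectively. SNHG1 held its call under every such setting, though not with a fold change of at least 1.5 required.

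**Figure D2:**
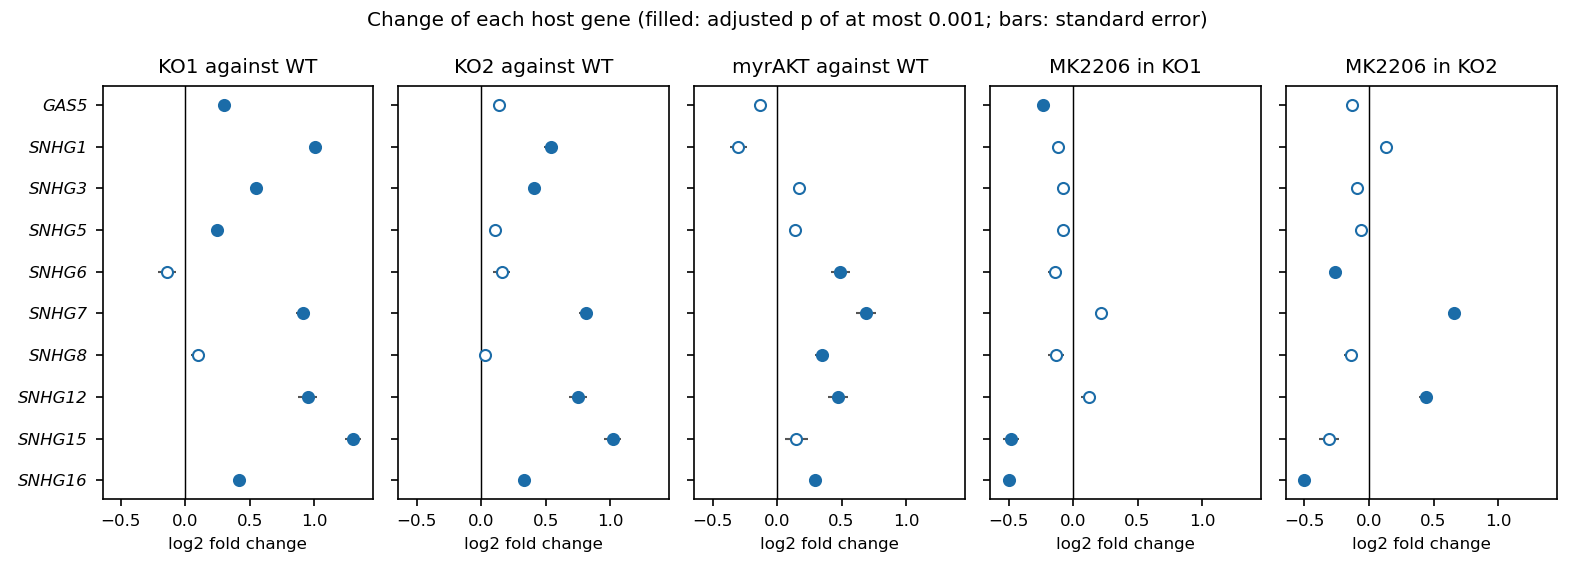
Log2 fold change (horizontal axis) of each host gene in 5 comparisons. Bars are standard errors derived from the edgeR F statistic and filled points have an adjusted p of at most 0.001. KO1 and KO2 share their WT libraries with myrAKT, and each MK2206 comparison shares its untreated libraries with the knockout comparison. SNHG15 has the largest change in KO1 (1.30) and KO2 (1.02) and SNHG7 the largest in myrAKT (0.69), while SNHG16 lies at −0.50 in both MK2206 comparisons.

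The study made the myrAKT line to address whether loss of GPS2 is enough for full activation of AKT-dependent signalling. Of the 10 hosts, 5 were higher and 0 lower in myrAKT than in WT, against 12.7% higher and 17.3% lower among all genes. The median log2 fold change was 0.23 over the hosts and 0.016 over all genes. SNHG7, SNHG12 and SNHG16 were called here and also in the knockouts, and since both comparisons use the same WT libraries their values are only set side by side. The log2 fold change in myrAKT was 0.69 ± 0.0779 (SE, adjusted p = 3.83e-06) for SNHG7, 0.47 ± 0.0779 (adjusted p = 0.000147) for SNHG12 and 0.29 ± 0.0453 (adjusted p = 8.61e-05) for SNHG16. Levels were 27.1, 30.6 and 24.0 CPM for SNHG7, 20.6, 19.5 and 19.2 for SNHG12 and 252, 237 and 225 for SNHG16. All were above the WT libraries, and for SNHG7 and SNHG16 they overlapped those of KO2. The SNHG12 call was lost when the third WT library or the first or second myrAKT library was left out, with an adjusted p of up to 0.00179, and that of SNHG16 with no filter beyond 1 count (adjusted p = 0.00139).

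SNHG6 and SNHG8 passed in myrAKT and not in the pooled knockouts. SNHG8, the host of the pseudouridylation guide SNORA24, was at 30.5, 30.0 and 29.4 CPM in WT and at 37.9, 41.2 and 36.4 in myrAKT, while all KO1 and KO2 libraries lay between 29.9 and 35.1. Its log2 fold change was 0.35 ± 0.0542 (SE, adjusted p = 7.48e-05) in myrAKT and 0.06 ± 0.0515 (adjusted p = 0.342) in the knockouts. SNHG6, the host of the methylation guide SNORD87, was at 24.2, 20.9 and 25.6 CPM in WT and 33.0, 35.7 and 30.9 in myrAKT. Its knockout libraries, 22.2, 22.3 and 20.4 CPM in KO1 and 26.0, 26.1 and 27.2 in KO2, fell around those of WT, with 2 of the KO1 libraries inside the WT range, the third below it and all of KO2 above it. The log2 fold change of SNHG6 was 0.49 ± 0.074 (SE, adjusted p = 7.07e-05) in myrAKT and 0.01 ± 0.0969 (adjusted p = 0.949) in the knockouts. The difference between the myrAKT and knockout effects was not tested for any host.

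SNHG1, SNHG15 and GAS5 were not higher in myrAKT. SNHG1 read 47.9, 44.3 and 41.4 CPM, below all WT libraries, and its log2 fold change of −0.30 ± 0.066 (SE) missed the threshold at an adjusted p of 0.0015. With DESeq2, with all 18 libraries fitted together and with either other filter on low counts it passed. SNHG15 was at 13.2, 12.2 and 10.9 CPM, overlapping WT (log2 fold change 0.15, 95% interval −0.02 to 0.33). For GAS5 the log2 fold change was −0.13 (95% interval −0.23 to −0.04, adjusted p = 0.0298), and its libraries, 83.6, 90.6 and 84.7 CPM, were below those of WT. SNHG3 (0.17, adjusted p = 0.00846) and SNHG5 (0.14, adjusted p = 0.0189) also missed the threshold.

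MK2206 was given to the knockout pools to ask which of their expression depends on AKT activity. In both pools together 1 host was higher and 1 lower with the inhibitor, against 12.8% higher and 8.75% lower among all genes. With the knockout line as a factor in the fit 2 hosts were higher and 4 lower, so these counts depend on the fit. The shares of all genes called with that factor were not counted. The median log2 fold change was −0.11 over the hosts and −0.003 over all genes. SNHG16 was the host that fell. It went from 261, 262 and 263 CPM to 169, 192 and 184 in KO1, and from 253, 238 and 244 to 185, 167 and 162 in KO2, so that treated and untreated libraries stood far apart in both pools and 5 of the 6 treated libraries lay below every WT library, the other one, of KO1+MK, inside the WT range. The log2 fold change was −0.50 ± 0.0427 (SE, adjusted p = 5.73e-07) over both pools and passed under every other scaling, filter and fit, though not with a fold change of at least 1.5 required.

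SNHG7 was the host that rose, from a level that was already above WT. Its libraries measured 34.8, 36.7 and 37.6 CPM in KO1+MK and 44.5, 46.1 and 47.5 in KO2+MK, above all untreated knockout libraries. The log2 fold change was 0.45 ± 0.0757 (SE, adjusted p = 0.000242) in both pools, and it missed the threshold, with an adjusted p of up to 0.00115, when the first or the second KO2+MK library was left out. SNHG15 (−0.40 ± 0.0813, adjusted p = 0.00101) and SNHG12 (0.28 ± 0.0582, adjusted p = 0.00123) were just past the threshold on the side of no call. SNHG15 with the inhibitor was at 16.9, 19.4 and 20.4 CPM in KO1 and 19.8, 17.8 and 15.1 in KO2, below each untreated knockout library and above each WT library.

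Within KO1, MK2206 left 0 hosts higher and 3 lower, against 10.9% higher and 8.26% lower among all genes. These were SNHG16 (log2 fold change −0.50 ± 0.0394, SE), SNHG15 (−0.48 ± 0.06) and GAS5 (−0.23 ± 0.0415). The GAS5 call was lost when any 1 KO1 library was left out and with scaling by library totals alone, with an adjusted p of up to 0.00424. In KO2 the inhibitor left 2 hosts higher, SNHG7 (0.66 ± 0.048) and SNHG12 (0.44 ± 0.0497), and 2 lower, SNHG16 (−0.50 ± 0.0454) and SNHG6 (−0.26 ± 0.0515), where 13.1% of all genes were higher and 8.78% lower. SNHG6 was the least firm of these, since only 3 of 14 settings kept its call and every left-out library ended it.

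The treatment effects of the 2 pools were compared through an interaction term. No host passed, where 0.0128% of all genes were higher and 0.0% lower in KO2, and 3 hosts had an unadjusted p under 0.05 in edgeR, as did 1251 of all 15587 genes. SNHG7 came nearest, with a response 0.44 ± 0.0664 (SE, log2) larger in KO2 and an adjusted p of 0.0115. DESeq2 and the fit with no filter beyond 1 count each called SNHG7 and no other host. A difference in response between the pools is therefore not established for any host by the main test. The 95% interval of the difference in log2 response was −0.13 to 0.10 for SNHG3, −0.08 to 0.12 for SNHG5 and −0.12 to 0.13 for SNHG16.

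SNHG6 spans bases 66920561 to 66926398 of chromosome 8 on the minus strand. Its groups ran from 19.3 CPM in KO1+MK, through 21.6 in KO1, 21.9 in KO2+MK, 23.6 in WT and 26.4 in KO2 to 33.2 in myrAKT. In that order WT and KO2+MK overlapped, as did KO2+MK and KO1, and the other neighbours did not. SNHG1 had myrAKT lowest at 44.5 CPM and KO1 highest at 111, and none of its neighbouring groups overlapped. Across the 18 libraries the log2 levels of SNHG1 and SNHG6 had a Pearson correlation of −0.75, the lowest of all pairs of hosts. The highest were 0.95 for SNHG7 with SNHG12 and 0.89 for SNHG3 with SNHG15. Each host was also set against the mean of the other 9, which gave 0.84 for SNHG3 and for SNHG15, 0.80 for SNHG5, 0.07 for SNHG8 and −0.25 for SNHG6. These values describe 18 libraries that fall into 6 groups and share their scaling, and no test was made of them.

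Among the genes outside the hosts, the level most like the mean of the 10 hosts over the 18 libraries was that of MCM7, a subunit of the replicative helicase (Pearson r = 0.956). MCMBP, which binds the MCM complex (0.955), the peptidase gene THOP1 (0.943), the homologous recombination gene XRCC3 (0.942) and RANGAP1, the GTPase-activating protein of Ran (0.942), came next. MCM7 averaged 247 CPM in WT, 350 in KO1, 335 in KO2, 292 in myrAKT and 301 and 300 in the treated pools. The least alike were ATP11B and VPS54 (both −0.944), PPARA, BNIP2 and RFX3. The nuclear receptor gene PPARA averaged 60.0 CPM in WT against 35.0 in KO1 and 36.4 in KO2.

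The snoRNAs inside the hosts were largely invisible to this table. GENCODE 44 places 25 snoRNA genes inside 9 of the hosts and none inside GAS5, which is known as the host of a cluster of methylation guides. Of these, 22 lie wholly within bases that are also annotated as host exon in some transcript, and 21 of them had 0 counts in all 18 libraries. A read there belongs to both genes, and the counting rule for such reads is not given in the sources used here, so a count of 0 does not show that the snoRNA was absent. RNA was extracted with the RNeasy Plus Mini kit, and how far it kept RNA as short as a snoRNA was not tested. The exception was SNORD30 in SNHG1, with 6 to 29 counts. It averaged 0.249 ± 0.077 CPM in WT, 0.766 ± 0.0245 in KO1, 0.623 ± 0.138 in KO2 and 0.284 ± 0.0682 in myrAKT, too few counts to enter the test.

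The 3 snoRNAs outside host exons all had counts. SNORA73B in SNHG3 (chr1:28508559-28508762) had 868 to 2327 per library. Its level was 41.4 ± 1.67 CPM in WT, 46.4 ± 6.25 in KO1, 41.4 ± 3.31 in KO2 and 51.9 ± 7.43 in myrAKT. While SNHG3 was 1.39-fold higher in the knockouts, SNORA73B had a log2 fold change of 0.07 with a 95% interval of −0.10 to 0.24 (adjusted p = 0.522), and in myrAKT of 0.33 (adjusted p = 0.00425). SNORD99 in SNHG12 (chr1:28578749-28578822) had 28 to 88 counts and a log2 fold change of 0.49 in the knockouts (95% interval −0.04 to 1.02, adjusted p = 0.138). SNORD1B in SNHG16 had at most 9 counts. Host and snoRNA differences were not tested against each other, and these counts do not separate a mature snoRNA from unspliced host RNA.

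Several hosts share a start region or exons with another gene, and unstranded counting would mix their reads, the strand setting being not given in the sources used here. SNHG3 shares its start region and 242 exon bases with RCC1, the nucleotide exchange factor of Ran, on the same strand. RCC1 was 1.62-fold higher in KO1 (adjusted p = 1.06e-09), 1.53-fold in KO2 (adjusted p = 5.93e-09) and 1.17-fold in myrAKT (adjusted p = 0.000444), and the last call was lost in each setting that left out a WT library. Reads in the shared exon bases could be given to either gene. SNHG1 starts 82 bases from SLC3A2, the heavy chain of amino acid transporters, which is read in the other direction and shares no exon. SLC3A2 was 1.28-fold higher in KO1 (adjusted p = 1.06e-06) where SNHG1 was 2.01-fold higher. In KO2 SLC3A2 was at 1.11-fold (adjusted p = 0.00519) where SNHG1 was 1.46-fold higher, in the pooled knockouts at 1.19-fold (adjusted p = 0.00618) and in myrAKT at 0.87-fold (adjusted p = 0.0073), none of them past the threshold. GAS5 starts 93 bases from ZBTB37, a zinc finger gene, whose log2 fold change was −0.07 in KO1, 0.06 in KO2 and 0.15 in myrAKT, none past the threshold. A further divergent partner, the noncoding ENSG00000267546, starts 92 bases from SNHG16 and was lower in KO1 (log2 fold change −1.40, adjusted p = 0.000663) at 0.369 ± 0.018 CPM against 0.976 ± 0.338 in WT. It did not pass in KO2 (−1.04, adjusted p = 0.0091), in the pooled knockouts (−1.22, adjusted p = 0.00152) or in myrAKT (0.15, adjusted p = 0.675).

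Genes on the opposite strand that overlap host exons moved partly with and partly against their hosts. PRSS12, a serine protease gene that shares 2487 exon bases with SNHG8, was lower in KO1 (log2 fold change −0.50), KO2 (−1.17) and myrAKT (−1.08), where SNHG8 was at 0.10, 0.03 and 0.35. DIPK1B, with 1482 bases shared with SNHG7, was higher in KO1 (0.96) and KO2 (0.75), as SNHG7 was, and had a log2 value of −0.20 (adjusted p = 0.293) in myrAKT, where SNHG7 was higher. DIPK1B had only 66 to 218 counts per library. TRNAU1AP, a selenocysteine incorporation gene that shares 8 bases with SNHG12, was 1.43-fold higher in the knockouts (adjusted p = 5.95e-06). GAS5-AS1 and MCMDC2, an antisense neighbour of SNHG6, passed in none of the comparisons, and PKMP3 and ENSG00000271793 at SNHG5 had at most 6 counts in any library.

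**Figure D3:**
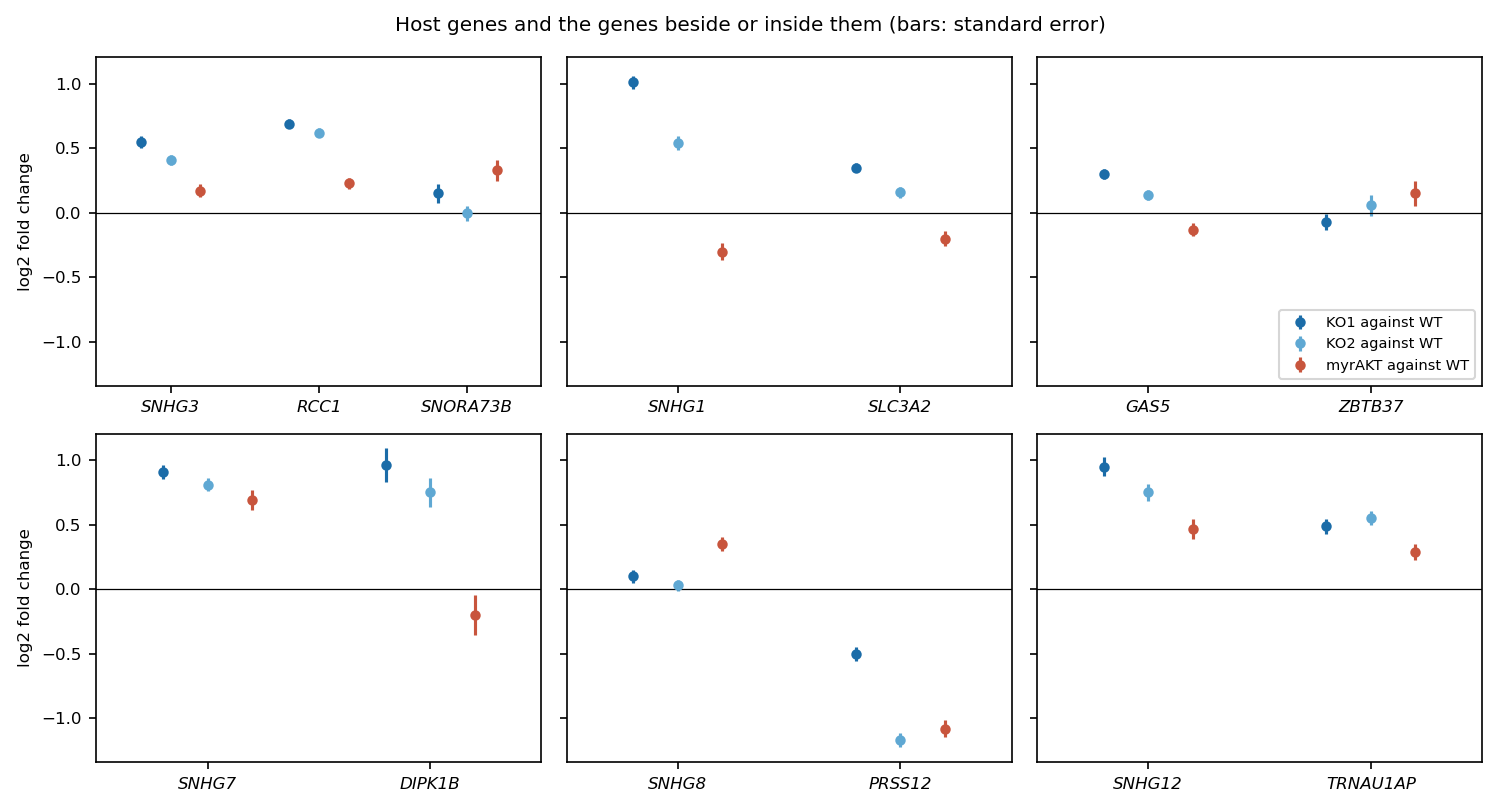
Log2 fold change (vertical axis) of 6 hosts and of genes beside or inside them, against WT; points are edgeR estimates for KO1 (dark blue), KO2 (light blue) and myrAKT (red) and bars are standard errors. RCC1 lies with SNHG3 while SNORA73B lies nearer 0 in the knockouts, and PRSS12 is below 0 in all 3 comparisons where SNHG8 is not.

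Further noncoding hosts were examined as a list of 18, all of which passed the filter on low counts. Here and in the lists that follow, the largest rise or fall is the largest among the genes past the threshold. In the knockouts 5 were higher and 0 lower (median log2 fold change 0.31), in myrAKT 6 higher and 1 lower (0.27), and with MK2206 0 higher and 3 lower (−0.07). Without the second or the third WT library only 3 were higher in the knockouts. SNHG4, the host of SNORA74A, had the largest rise in the knockouts, 1.77-fold (adjusted p = 9.44e-06), from 8.87 CPM in WT to 16.9 in KO1. SNHG26 had the largest rise in myrAKT (1.60-fold, adjusted p = 9.7e-05, lost without the third WT library) and the largest fall with MK2206 (log2 fold change −1.01, adjusted p = 7.66e-06), averaging 3.94 CPM in WT, 6.33 in myrAKT and 1.83 and 2.06 in the treated pools. SNHG18 had the largest fall in myrAKT, with 3.60 CPM in WT and 0.172 in myrAKT (log2 fold change −4.34, adjusted p = 1.16e-08). It was also lower in KO1 (−1.27, adjusted p = 6.96e-06) and in KO2 (−3.38, adjusted p = 1.25e-07), and did not pass in the pooled knockouts (−1.97, adjusted p = 0.00305).

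Protein-coding hosts, whose introns also release snoRNAs, had smaller medians than the 10 hosts in the knockouts and in myrAKT. Of 37, 6 were higher and 1 lower in the knockouts (median log2 fold change 0.10), 3 higher and 4 lower in myrAKT (−0.05), and 1 higher and 7 lower with MK2206 (−0.11). Leaving out the third WT or the second myrAKT library left 1 higher in myrAKT, and leaving out any 1 KO1 library left 4 lower with MK2206. NOP56, which is both a host and a core protein of the box C/D snoRNP, had the largest rise in the knockouts, 1.82-fold (adjusted p = 4.12e-06), and the translation factor EIF4A2 was the only gene called lower (−0.29, adjusted p = 0.00012), a call lost without any 1 WT library. RPL37 had the largest rise in myrAKT (1.38-fold) and TAF1D, a subunit of the RNA polymerase I factor SL1, the largest fall (−0.89, adjusted p = 6.52e-09), and with MK2206 CHD8 rose (0.19) and EIF4A1 fell (−0.37, adjusted p = 0.000532). The CHD8 and EIF4A1 calls were lost in several settings, and the CHD8 call, the only one higher, without the first KO1+MK library or any 1 KO2+MK library, while 2 genes were higher without the second KO1 library.

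The proteins that assemble on snoRNAs and their assembly factors were higher in the knockouts for 10 of 18 and lower for 0, with a median log2 fold change of 0.25. NOP56 had the largest value there too. In myrAKT 0 were higher and 3 lower, NHP2, a box H/ACA protein, having the largest fall (−0.34, adjusted p = 3.65e-05), and 5 were lower without the first myrAKT library. With MK2206 0 were higher and 8 lower, with NOP58, the partner of NOP56, at −0.43 (adjusted p = 2.17e-06). The factors of NMD, the pathway that degrades several host RNAs, gave 7 of 10 higher and 0 lower in the knockouts (median 0.35), 5 higher and 0 lower in myrAKT (0.21), and 1 higher and 0 lower with MK2206 (0.12). Without the third WT library 3 NMD factors were higher in myrAKT, and without the second KO2 library 2 were higher with MK2206. SMG9 had the largest rise in the knockouts (1.72-fold, adjusted p = 3.86e-07) and in myrAKT (1.52-fold), and UPF1, the central helicase of the pathway, was the only factor called with MK2206 (1.20-fold, adjusted p = 7.76e-06).

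Of 18 mRNAs with a TOP tract outside the ribosomal proteins, 17 could be tested. In the knockouts 4 were higher and 1 lower (median log2 fold change 0.09), in myrAKT 3 higher and 2 lower (−0.02), and with MK2206 0 higher and 1 lower (−0.09). EEF1D, a subunit of the elongation factor 1 complex, had the largest rise in the knockouts (1.35-fold) and in myrAKT (1.35-fold). EIF4B had the only fall in the knockouts (−0.22, adjusted p = 0.000379, lost without a filter and without any 1 WT library or the first library of KO1 or of KO2), FAU the largest fall in myrAKT (−0.53, adjusted p = 5.3e-07) and the importin IPO5 the only one with MK2206 (−0.23, adjusted p = 0.000346), lost without any 1 KO1 library. Without the first myrAKT library 4 were lower in myrAKT, and without the second KO1+MK library 3 were lower with MK2206. Some genes stand in more than 1 list, such as NOP56 and DKC1 among coding hosts and snoRNP proteins. Read against the percentages for all genes given above, these counts are descriptions, and no list was tested as a set.

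**Figure D4:**
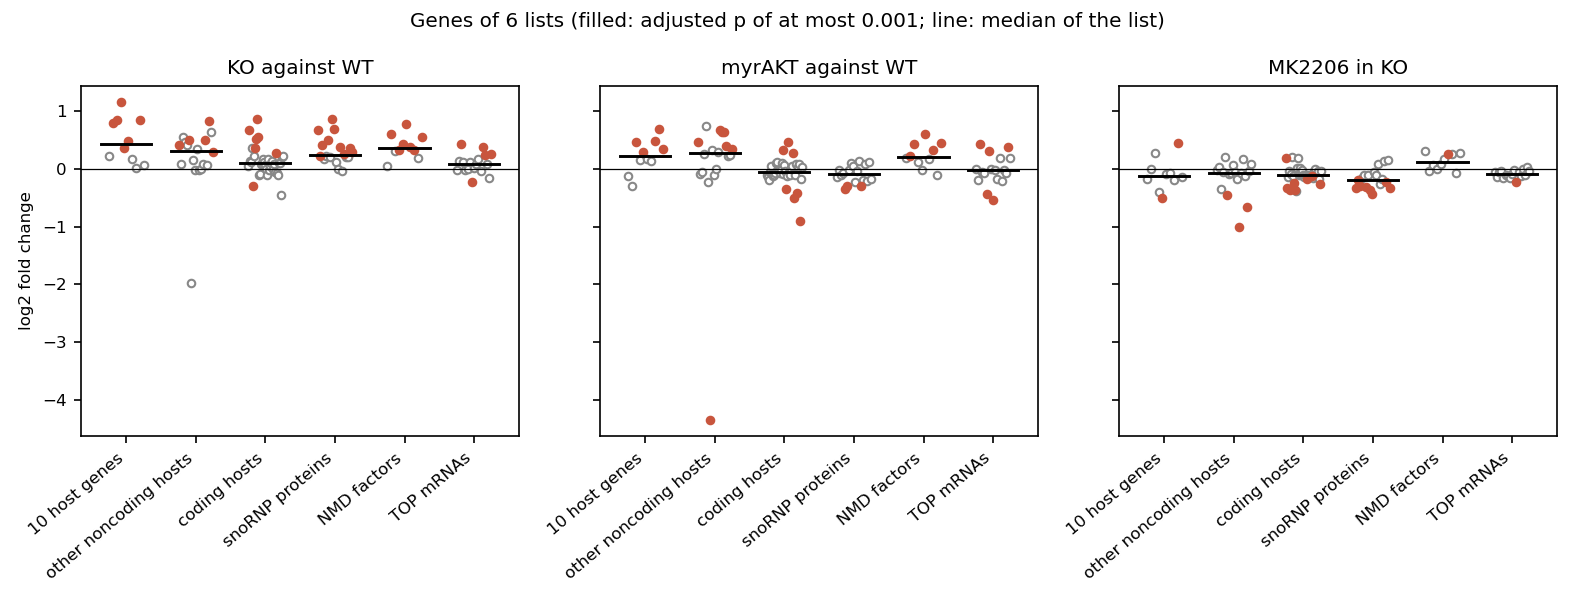
Log2 fold change (vertical axis) of each gene in 6 lists for the pooled knockouts, myrAKT and MK2206 comparisons; filled points have an adjusted p of at most 0.001 in edgeR and lines are list medians. The 10 host genes have the highest median in the knockouts (0.42), and the low point in myrAKT is SNHG18 (−4.34). Hosts and lists were chosen with earlier results of these data known.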

How the data were processed

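Total RNA was ribodepleted (KAPA RNA HyperPrep with RiboErase) and sequenced as paired ends in 1 pool over 2 runs. According to the methods and the submitters' processing notes, the authors trimmed reads with Trim Galore, aligned them to hg38 with HISAT2 and counted them per gene with featureCounts; versions, annotation and strand setting are not given in the sources used here. The deposited values are raw counts per gene for 57448 genes and 18 libraries (23419198 to 39319910 counts each), and all columns were used.

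Groups followed the labels. The 15587 genes that reached 1 CPM in 3 or more libraries were tested with edgeR 4.0.16 (R 4.3.3; TMM factors, glmQLFit and glmQLFTest, only the compared groups in each fit), with Benjamini-Hochberg adjustment over all genes tested and calls at an adjusted p of at most 0.001; the study used DESeq2. CPM are per 1000000 TMM-scaled counts, and correlations used log2 CPM with a prior count of 2. Each edgeR standard error was taken as the absolute log2 fold change over the square root of the F statistic. The 95% intervals assume a normal distribution and are narrower than the test implies. SNHG6 in KO1, for example, had −0.28 to −0.01 at an unadjusted edgeR p of 0.0601. The fit was tested on simulated counts. Alternatives were DESeq2 1.42.0, other scaling factors and filters, all libraries in 1 fit, a replicate block, other thresholds and leaving out each library. Replicate libraries differed by more than counting noise, with a mean chi-square of at least 2.26 per gene, so none was merged.

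The hosts and the gene lists were chosen with earlier results of these data known. Named genes were all 10 hosts, snoRNA genes inside them with at least 10 counts in at least 3 libraries, genes overlapping their exons or starting within 1000 bases on the other strand, the largest rise and fall past the threshold in each other list for the 3 main comparisons, GPS2, AKT1, and the 5 genes most and least like the hosts. SNORD1B, outside this rule, was named after its values were seen. Gene positions are from GENCODE 44 on hg38, the authors' build; 56948 of the 57448 gene IDs were found there. A further gene that meets this rule is not reported here.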

Additional observations from a re-analysis of the deposited data

Results flagged for a closer look

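The 2 knockout pools differed for 4 hosts, by the direct test of KO2 against KO1 in edgeR, and guides and pool cannot be told apart. The log2 difference, KO2 minus KO1, was −0.47 for SNHG1, −0.27 for SNHG15 and −0.16 for GAS5, and 0.30 for SNHG6. SNHG1 kept its call in all 14 alternatives of tool, scaling, filter, fit and left-out library, and the other 3 lost theirs in several. The response to MK2206 differed between the pools for 0 hosts at the adjusted threshold and for 3 at an unadjusted p under 0.05 in edgeR, as for 1251 of all 15587 genes, while DESeq2 called 1.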

How the results depend on the processing

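Of 38 calls of a host in any comparison, 29 held under every alternative tool, scaling, filter, fit and left-out library, and 0 turned direction. The shares of all genes called were counted for the main fit and threshold only, so the counts below have no such share beside them. The fold thresholds were counted apart: at a fold change of at least 1.5, with an adjusted p of at most 0.001 or of 0.05, 4 hosts were higher in the pooled knockouts, 4 in KO1 and 3 in KO2, 1 in myrAKT and 1 in KO2 with MK2206, and 0 in either direction for KO2 against KO1 and MK2206 in both pools, or lower for MK2206 in KO1 or KO2. For the pooled knockouts, 7 hosts were higher with DESeq2 and 8 with the pools as separate groups or with all libraries in 1 fit. In myrAKT against WT, 1 host was lower with DESeq2, with all 18 libraries in 1 fit, with no filter beyond 1 count, with at least 10 counts in every library and with the replicate block. MK2206 in both pools gave 2 higher and 3 lower with DESeq2, 2 higher and 4 lower with all libraries in 1 fit or with the knockout line as a factor, 2 higher with library totals, 3 lower with upper-quartile factors and 2 lower with DESeq2-type factors and with either filter. For MK2206 in KO2, 1 was lower with DESeq2, all libraries, library totals or the replicate block. With library totals 1 was higher for MK2206 in KO1. KO2 against KO1 gave 0 higher and 1 lower with all libraries in 1 fit and 6 lower without a filter. The interaction gave 1 higher with DESeq2 and without a filter. Among coding hosts, 11 were higher in the pooled knockouts with DESeq2 or all libraries in 1 fit and 14 with the pools as separate groups, and 2 were lower with any of these or without a filter. With MK2206 they gave 3 higher and 13 lower with the line as a factor, 2 higher and 14 lower with all libraries, 2 higher with DESeq2 and 0 higher without a filter or with upper-quartile factors. Of the further noncoding hosts 1 was lower in the knockouts with separate pools, all libraries or no filter, and in myrAKT 2 were lower with all libraries and 0 with at least 10 counts in every library. NMD factors higher with MK2206 numbered 3 with DESeq2, 4 with all libraries and 5 with the line as a factor. TOP mRNAs lower with MK2206 numbered 3 with DESeq2 or upper-quartile factors, 7 with all libraries and 5 with the line as a factor; in the knockouts 2 were lower with separate pools and 0 without a filter, and in myrAKT 5 were lower with DESeq2 and 5 higher with DESeq2, library totals or upper-quartile factors. The causes were not tested.

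The replicate numbers pair nothing in the labels, and same-numbered libraries did not deviate together (correlations of −0.518 to 0.297 over pairs of groups). With the replicate block, 5 hosts were higher in the pooled knockouts, where SNHG1 lost its call, and 0 with MK2206 in both pools, where SNHG7 lost its call. It left 3 further noncoding hosts higher and 0 TOP mRNAs lower in the knockouts and, with MK2206, 0 coding hosts higher, 3 lower and 0 TOP mRNAs lower.

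Signs turned only for values near 0 that no setting called. SNHG6 in KO against WT was −0.011 with library totals and −0.007 with upper-quartile factors. SNHG1 with MK2206 was 0.004 with the line as a factor and 0.009 with library totals. In the interaction SNHG8 was 0.002 with all libraries, 0.007 with at least 10 counts and 0.014 without a filter, SNHG3 was 0.004 without a filter, SNHG5 was −0.004 with library totals and SNHG16 was −0.020 with library totals and −0.014 with upper-quartile factors. Leaving out 1 library gave −0.051 to 0.094 for the first, −0.064 to 0.046 for SNHG1, and −0.061 to 0.048 for SNHG8, −0.060 to 0.021 for SNHG3, −0.001 to 0.061 for SNHG5 and −0.040 to 0.058 for SNHG16 in the interaction. With 1 library left out, hosts higher numbered 5 to 6 in the pooled knockouts, 6 to 7 in KO2, 4 to 5 in myrAKT, 0 to 1 for KO2 against KO1 and 0 to 2 for MK2206 in both pools, and hosts lower 1 to 3 for KO2 against KO1, 2 to 3 for MK2206 in KO1, 1 to 2 in KO2 and 1 to 2 in both pools.

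Each host had at least 337 counts in every library, while 21 of the 25 snoRNA genes had no counts. All treated libraries were shallower than all untreated ones, so MK2206 and depth go together here, and the part of depth was not tested.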
